A study of Homo sapiens with 66 samples.

Results

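The 9 genes described here encode the 3 TGF-beta ligands (TGFB1, TGFB2, TGFB3), their signalling receptors (TGFBR1, TGFBR2), 3 secreted proteins of the extracellular matrix (TGFBI, FN1, THBS1) and an actin-binding protein of contractile cells (TAGLN). They are listed by name, with no threshold on a measured value, and all 9 were found by symbol among the 58721 Ensembl gene IDs of each of the 3 deposited count tables. The RNA came from A375, a human melanoma line with mutant BRAF. In the first experiment (42 libraries, 14 groups) cells carried a guide against GFP, which serves as control, or 1 of 2 guides against MED12, MED19 or MED23, and were given DMSO or 1 µM vemurafenib, an inhibitor of mutant BRAF, for 24 h. All 3 are subunits of Mediator, which bridges transcription factors and RNA polymerase II, MED12 in its kinase module and MED23 in its tail. In the second experiment (12 libraries, 4 groups) cells with the GFP guide or with MED23 guide 1 were transduced with either an empty control vector or one for SOX10, a melanocyte lineage transcription factor. In the third (12 libraries, 4 groups) the cells were controls, HDAC3 knockouts, MED23 knockouts or double knockouts. HDAC3 is a histone deacetylase that works within NCOR corepressors. The last 2 experiments were without drug. Each of the 22 groups had 3 libraries.

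TGF-beta ligands are secreted in a latent form that is held in the matrix until it is activated. The active ligand binds TGFBR2, which recruits and phosphorylates TGFBR1, and TGFBR1 then phosphorylates SMAD2 and SMAD3, which enter the nucleus with SMAD4. FN1 (fibronectin), TGFBI, THBS1 (thrombospondin 1) and TAGLN (transgelin) are often used as transcriptional responders of the pathway, and THBS1 can also activate the latent ligand. In melanoma the pathway is known for its link to an invasive, dedifferentiated cell state.

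Levels are given in CPM, counts per M counts of the scaled library, as mean ± SD with n = 3 libraries. Differences are given on the log2 scale with their SE, by edgeR's quasi-likelihood test fitted to all genes of an experiment, with both guides of a subunit weighted equally and p-values adjusted by Benjamini-Hochberg over all genes tested. A gene is said to have risen, fallen or passed at an adjusted p under 0.05. Total counts per library were between 65.88 and 211.8 M in the Mediator experiment, 24.87 to 30.77 M in the SOX10 experiment, and 58.84 to 106.2 M for HDAC3. Whether replicates came from separate cultures is not stated in the labels. P-values therefore measure only the spread between libraries of 1 group, which leaves out how far the 2 guides of a subunit lay apart. In the knockouts of the Mediator experiment the mRNA of the targeted gene was at 18.3 to 28.7% of the matching control for MED12, at 45.8 to 54.6% for MED19 and at 42.9 to 47.5% for MED23. SOX10 mRNA was at 525 CPM with the empty vector and at 600.2 CPM with that for SOX10 in control cells, and at 246 and 429 CPM in MED23 knockout cells. How much of the vector's transcript is counted at the SOX10 gene is not known, so these values may not measure the overexpression in full. HDAC3 mRNA changed by -0.97 ± 0.05 in HDAC3 knockouts (adjusted p = 4.1e-13). Of the melanocyte markers, SOX10 (770.5 CPM), MITF (73.8 CPM) and S100B (50.8 CPM) were well expressed in control cells in DMSO, whereas MLANA (1.37 CPM), PMEL (0.80 CPM) and TYR (0.018 CPM) were at or near 0. Markers of blood cells summed to at most 2.84 CPM in any library of this experiment.

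Compared per length of their exons, the members differed widely in level. In control cells in DMSO THBS1 had 127 ± 5.78 RPKM, TGFB1 34.2 ± 1.48, TGFBI 28.1 ± 0.287, FN1 13.1 ± 0.433, TGFBR2 12.3 ± 0.0757 and TGFBR1 8.58 ± 0.32. TGFB3 (0.928 ± 0.0992 RPKM), TAGLN (0.616 ± 0.0741) and TGFB2 (0.408 ± 0.0316) were the low members. TGFB1 was therefore the ligand with by far the most mRNA in these cells. Over the 14 groups of the Mediator experiment the highest group mean in CPM was 17.7 times the lowest for TAGLN and 6.69 times for TGFB2. The same ratio was 3.22 for TGFB3, 3.19 for TGFBI, 2.65 for TGFBR2, 2.43 for FN1, 1.94 for TGFB1, 1.80 for THBS1 and 1.75 for TGFBR1.

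**Figure D1:**
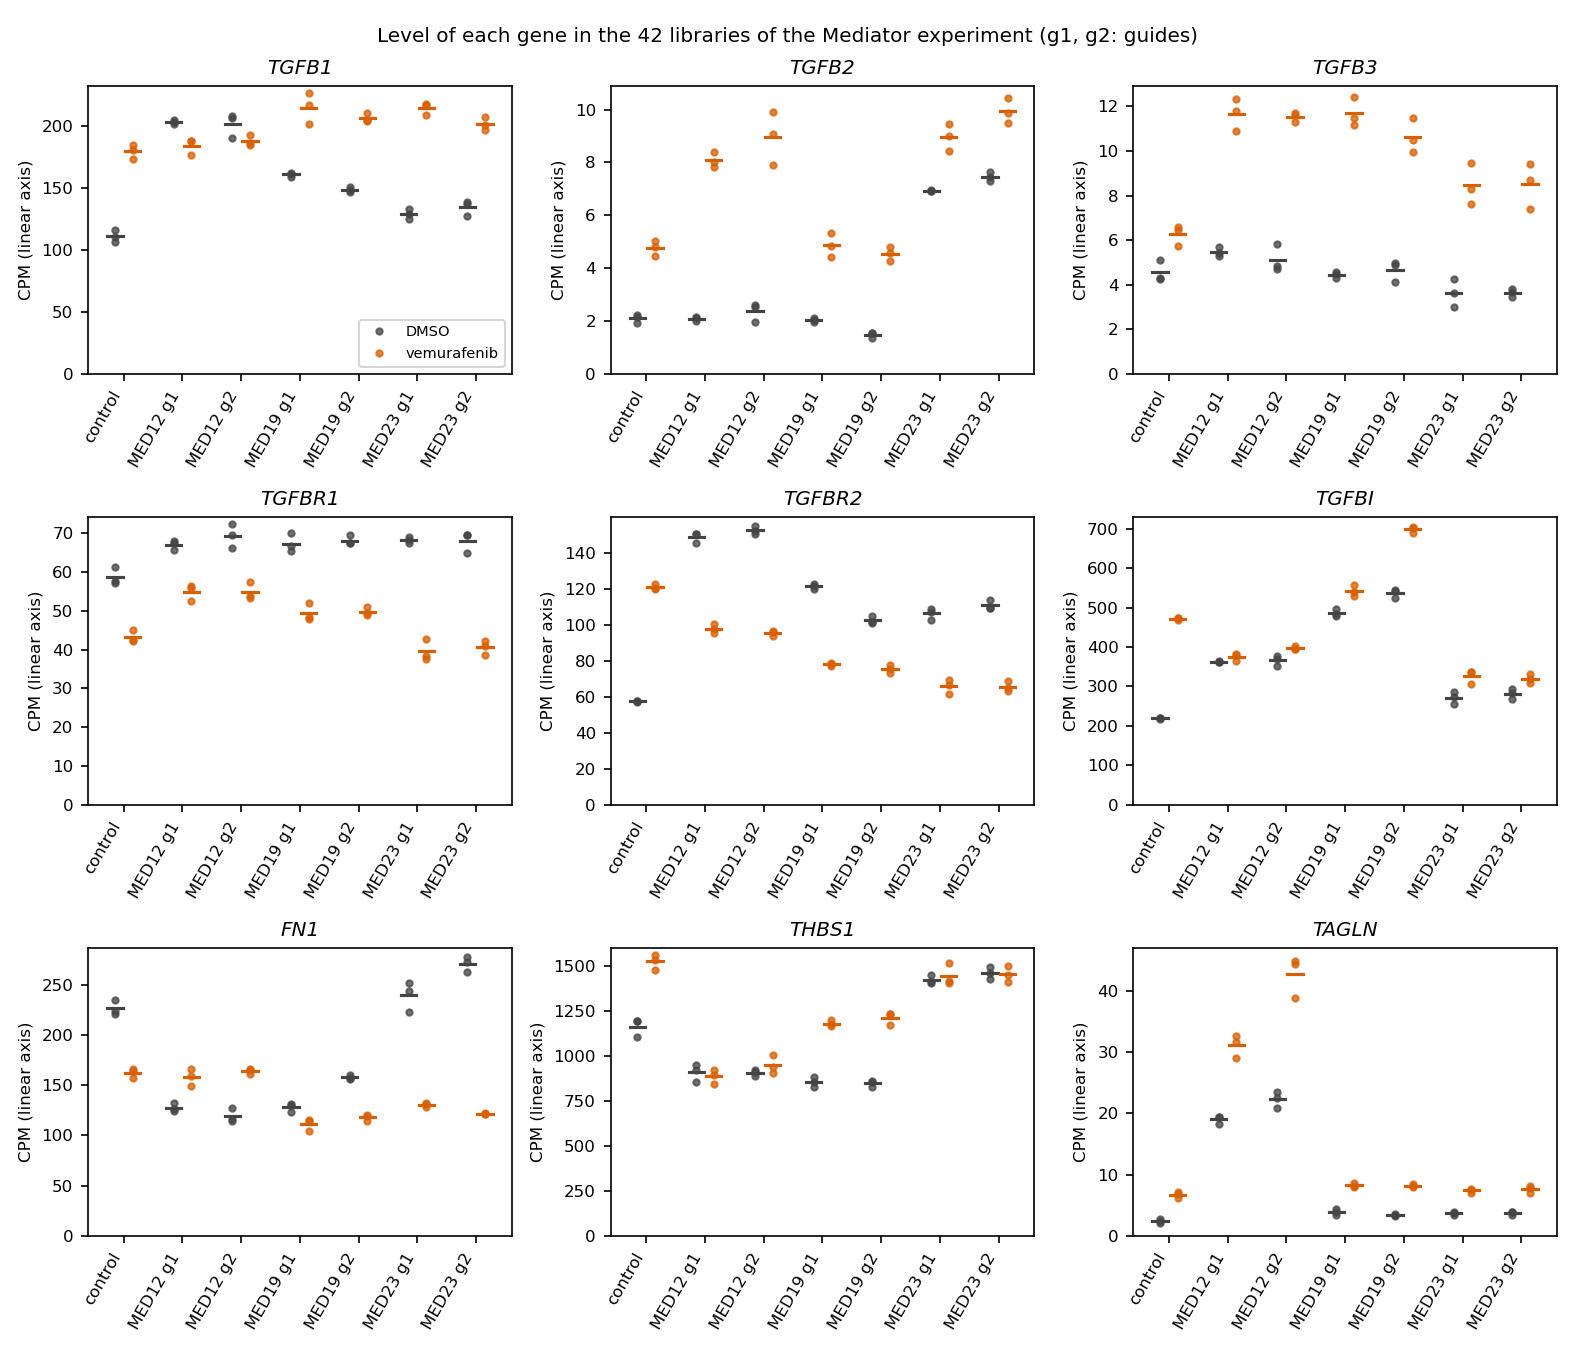
Level of each of the 9 genes in CPM on a linear axis from 0, in the 42 libraries of the Mediator experiment. Points are libraries (grey DMSO, orange vemurafenib), bars are means of 3 libraries, and g1 and g2 are the guides of a subunit. TGFBR2 is lowest in control cells in DMSO (57.6 CPM) and TAGLN is highest in the 4 groups of MED12 knockout cells (19.0 to 42.7 CPM).

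TGFB1 (ENSG00000105329, chromosome 19, 41301587 to 41353911, GRCh38, minus strand) rose with the drug in control cells and rose without the drug in all 3 knockouts. The control libraries held 106, 116 and 110.1 CPM in DMSO and 181, 173 and 184 CPM under vemurafenib, a rise of 0.69 ± 0.036 (adjusted p = 1.0e-22). In DMSO the level was 203 ± 1.43 and 201 ± 9.96 CPM with the MED12 guides, 161 ± 1.61 and 148 ± 1.96 with the MED19 guides and 129 ± 4.2 and 134 ± 5.97 with the MED23 guides. No library of any of these knockouts overlapped the control libraries. The rises were 0.87 ± 0.032 for MED12 (adjusted p = 3.1e-28), 0.48 ± 0.032 for MED19 (adjusted p = 7.8e-18) and 0.25 ± 0.031 for MED23 (adjusted p = 6.1e-09). The MED12 rise was larger than that of MED19 by 0.39 ± 0.025 (adjusted p = 2.0e-18) and larger than that of MED23 by 0.62 ± 0.025 (adjusted p = 2.5e-26).

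Under vemurafenib the groups drew together. TGFB1 stood at 179 ± 5.42 CPM in control cells, at 184 ± 6.33 and 188 ± 4.34 in MED12 knockout cells, and between 201.1 and 214.5 CPM in the 4 groups of MED19 and MED23 knockout cells. The MED12 difference from control was 0.05 ± 0.031 (adjusted p = 0.152, and 0.0213 without the filter on low counts), and the libraries overlapped. The drug changed TGFB1 by -0.12 ± 0.025 in MED12 knockout cells, which differed from its change in control cells by -0.82 ± 0.044 (adjusted p = 1.3e-21). The corresponding difference was -0.25 ± 0.044 for MED19 (adjusted p = 8.8e-06) and -0.04 ± 0.044 for MED23 (adjusted p = 0.591). Of the exon bases of TGFB1, 6.64% are shared with HNRNPUL1 on the opposite strand.

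TGFB2 (ENSG00000092969, chromosome 1, 218346235 to 218444619, plus strand) was at the bottom of the range in control cells and was set apart by MED23. In DMSO the control libraries held 1.92, 2.14 and 2.24 CPM, while the MED23 knockout libraries held 6.92, 6.94 and 6.91 CPM with guide 1 and 7.28, 7.64 and 7.44 CPM with guide 2. All 6 lay above every other DMSO library of the experiment. The rise was 1.76 ± 0.082 (adjusted p = 7.4e-24), a 3.39-fold change. MED12 knockout gave 2.08 ± 0.0915 and 2.36 ± 0.346 CPM, with a difference of 0.07 ± 0.083 from control (adjusted p = 0.491). MED19 knockout gave 2.05 ± 0.0723 CPM with guide 1 and 1.49 ± 0.114 CPM with guide 2, and the fall of -0.28 ± 0.087 over both guides (adjusted p = 0.0071) was -0.05 with guide 1 alone (adjusted p = 0.763) and -0.51 with guide 2 alone (adjusted p = 1.0e-04). It was lost without control replicate 3 (adjusted p = 0.0736).

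Vemurafenib raised TGFB2 in control cells and in each knockout, by unequal amounts. In control cells it went to 5.02, 4.46 and 4.79 CPM, a rise of 1.17 ± 0.091 (adjusted p = 4.8e-16). In MED12 knockout cells the rise was 1.94 ± 0.063, to 8.08 ± 0.297 and 8.97 ± 0.992 CPM, and it exceeded the rise in control cells by 0.77 ± 0.11 (adjusted p = 6.2e-08). In MED23 knockout cells, which started high, the rise was 0.39 ± 0.059, to 8.96 ± 0.511 and 9.93 ± 0.469 CPM, and it differed from that in control cells by -0.78 ± 0.11 (adjusted p = 6.3e-08). MED12 and MED23 knockout cells, which differed by -1.69 ± 0.064 in DMSO (adjusted p = 9.9e-28), thus differed by -0.15 ± 0.058 under the drug (adjusted p = 0.0275), with overlapping libraries, a call lost with either guide alone (adjusted p = 0.151 and 0.135), without the filter on low counts (0.1), or without MED12 guide 1 replicate 1 or 2, guide 2 replicate 2, MED23 guide 1 replicate 2 or 3 or guide 2 replicate 2 (0.0514 to 0.163). MED19 knockout cells stayed near control under the drug (-0.02 ± 0.075, adjusted p = 0.896). TGFB2 shares 1371 of its 5151 exon bases (26.6%) with TGFB2-OT1 on the same strand, so reads there cannot be told apart between the 2 genes or may have been left uncounted.

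The stretch before the start of TGFB2 is shown because this ligand had the widest range of the 3. It comes from RefSeq (GRCh38.p14), plus strand, chr1:218345136-218345335, and ends at the base before the RefSeq start. That start lies upstream of the gene start given above (218346235), so the stretch does not adjoin the latter. Capitals mark matches to GGAATG (the motif of TEAD factors, here on the minus strand) and an overlapping pair, CAGACA (a SMAD motif) and CACGTG (an E-box).
TGFB2: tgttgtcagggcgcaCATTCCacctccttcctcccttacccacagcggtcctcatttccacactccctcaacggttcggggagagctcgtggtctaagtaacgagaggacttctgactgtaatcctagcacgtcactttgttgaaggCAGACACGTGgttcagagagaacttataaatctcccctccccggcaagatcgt
Searched on both strands in windows of 250 bases before to 50 after each RefSeq start, GGAATG was found for 3 of the 8 members with a window (TGFB2, TGFBR1, THBS1), CAGACA for 2 (TGFB2, TGFBR1) and CACGTG for 2 (TGFB2, TGFB3). Among all 35116 windows the shares holding these letters were 14%, 16.9% and 7.26%. The SMAD motif GTCTAGAC was in none of the 8, and in 0.202% of all windows. TGFBR1 has 8 windows and TGFB3 and TGFBR2 have 2 each, so these had more chances of a match. TAGLN was not searched.

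TGFB3 (ENSG00000119699, chromosome 14, 75958099 to 75982991, minus strand) showed little difference between genotypes in DMSO and a clear one under the drug. Control libraries held 4.26, 5.12 and 4.30 CPM in DMSO and 6.59, 5.74 and 6.45 CPM under vemurafenib (0.45 ± 0.096, adjusted p = 4.8e-05). In DMSO the differences from control were 0.21 ± 0.084 for MED12 (adjusted p = 0.0325), -0.00 ± 0.085 for MED19 (adjusted p = 0.983) and -0.33 ± 0.085 for MED23 (adjusted p = 0.00141), all with overlapping libraries. The MED12 call was lost without control replicate 1 (adjusted p = 0.153) or 3 (0.174), MED12 guide 1 replicate 1 (0.0604) or guide 2 replicate 2 (0.116), with guide 2 alone (0.172), and with DESeq2's size factors (0.0603) or the Wald test (0.0705), and the MED23 call without control replicate 2 (0.0581). Under vemurafenib TGFB3 was at 11.7 ± 0.723 and 11.5 ± 0.229 CPM in MED12 knockouts, 11.7 ± 0.666 and 10.6 ± 0.771 in MED19 knockouts, and 8.46 ± 0.934 and 8.50 ± 1.02 in MED23 knockouts. These 18 libraries all lay above the control libraries. The drug's rise was larger than in control cells by 0.68 ± 0.12 for MED12 (adjusted p = 1.7e-06), 0.83 ± 0.12 for MED19 (adjusted p = 8.8e-08) and 0.77 ± 0.12 for MED23 (adjusted p = 6.1e-07). TGFB3 was the only member whose interaction with the drug was positive and passed in all 3 knockouts.

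TGFBR2 (ENSG00000163513, chromosome 3, 30606502 to 30694142, plus strand), the receptor that binds ligand first, moved with the drug in opposite directions in control and knockout cells. In control cells it rose from 57.2, 57.8 and 57.8 CPM to 120.3, 119.8 and 122.5 CPM, a 2.10-fold rise (1.07 ± 0.032, adjusted p = 1.8e-32). In DMSO every knockout had it higher than control: 149 ± 2.81 and 152 ± 2.45 CPM with the MED12 guides, 121 ± 1.55 and 103 ± 2.11 with the MED19 guides, and 106 ± 3.26 and 111 ± 2.72 with the MED23 guides. The rises were 1.39 ± 0.029 (adjusted p = 1.5e-38), 0.95 ± 0.029 (adjusted p = 3.4e-31) and 0.92 ± 0.029 (adjusted p = 9.2e-31). All 18 knockout libraries lay above the 3 control libraries.

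Under vemurafenib the order turned over, and all 18 knockout libraries lay below the 3 control libraries. The levels were 97.8 ± 2.51 and 95.5 ± 1.44 CPM for MED12, 78.1 ± 0.978 and 75.5 ± 2.47 for MED19 and 66.0 ± 3.81 and 65.6 ± 2.7 for MED23, against 121 ± 1.45 in control cells. The differences from control were -0.32 ± 0.027 (adjusted p = 4.9e-15), -0.66 ± 0.027 (adjusted p = 4.2e-26) and -0.88 ± 0.027 (adjusted p = 2.2e-31). Within knockout cells the drug lowered TGFBR2, by -0.64 ± 0.022 for MED12, -0.54 ± 0.023 for MED19 and -0.72 ± 0.023 for MED23. The interactions were -1.71 ± 0.039, -1.61 ± 0.039 and -1.79 ± 0.039 (adjusted p = 1.4e-36, 1.6e-34 and 1.9e-36), the largest in size of any member for each subunit.

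A short stretch of TGFBR2 is shown because this receptor had the largest interactions, and none of its exon bases is shared with another gene. It is RefSeq sequence (GRCh38.p14, plus strand) of chr3:30606583-30606612, which spans the second of 2 RefSeq starts of the gene, with a match to TGANTCA (the motif of AP-1) in capitals.
TGFBR2 start: gttgaagttgagTGAGTCActcgcgcgcac
TGFBR2 was the only one of the 8 members with a window that held TGANTCA, which 7.71% of all windows hold. GGGCGG (the SP1 motif) was found for 6 of the 8 (all but TGFB2 and TGFB3) and is held by 45% of all windows. The CArG box, a motif of serum response factor, was found only for TGFBR1, and 1.29% of all windows hold it. Such matches describe the letters of the window and say nothing of binding.

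TGFBR1 (ENSG00000106799, chromosome 9, 99104038 to 99154192, plus strand), the kinase that phosphorylates the SMADs, had the narrowest range of the members. It fell with the drug in control cells, from 61.2, 57.1 and 57.8 CPM to 45.0, 42.1 and 42.5 CPM (-0.44 ± 0.042, adjusted p = 2.9e-13), so the 2 receptors moved in opposite directions there. In DMSO it was between 67.1 and 69.4 CPM in the 6 knockout groups, above control by 0.22 ± 0.036 for MED12 and MED23 and by 0.21 ± 0.036 for MED19. The knockouts did not differ from each other beyond their spread in DMSO (adjusted p between 0.789 and 0.96 for the 3 pairs). Under vemurafenib it was higher than control by 0.35 ± 0.037 in MED12 (adjusted p = 1.2e-11) and 0.20 ± 0.037 in MED19 knockouts (adjusted p = 1.1e-05), and lower by 0.11 in MED23 knockouts (-0.11 ± 0.037, adjusted p = 0.0148, with overlapping libraries, 0.101 with guide 2 alone, and 0.173 without control replicate 1). The drug lowered it in each genotype, most in MED23 knockouts (-0.76 ± 0.03), where the fall was larger than in control cells by -0.32 ± 0.052 (adjusted p = 1.1e-06).

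**Figure D2:**
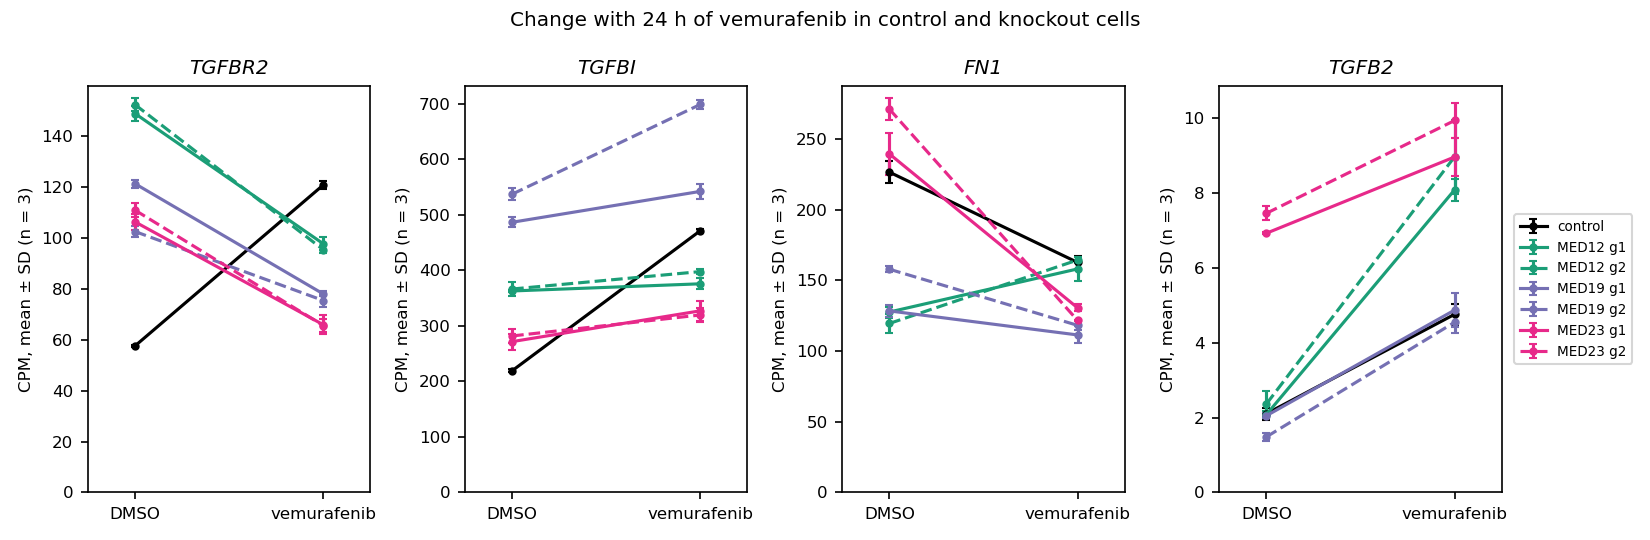
Mean ± SD (n = 3) in CPM of TGFBR2, TGFBI, FN1 and TGFB2 in DMSO and after 24 h of vemurafenib, on linear axes from 0. Black is the control guide and the colours are the knockouts, with guide 1 as a full and guide 2 as a dashed line. The TGFBR2 line rises from 57.6 to 121 CPM in control cells and falls in all 6 knockout lines.

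TGFBI (ENSG00000120708, chromosome 5, 136028895 to 136063818, plus strand), a matrix protein that binds collagen and integrins and is named for its induction by TGF-beta, rose 2.15-fold with the drug in control cells and much less in the knockouts. Control libraries rose from 219, 221 and 217 CPM to 474, 467 and 473 CPM (1.10 ± 0.033, adjusted p = 2.3e-32). In DMSO it was higher in every knockout, at 363 ± 1.7 and 366 ± 12.6 CPM for MED12, 486 ± 9.12 and 537 ± 10.4 for MED19 and 271 ± 14.2 and 282 ± 13.1 for MED23. The largest rise was that of MED19, 1.22 ± 0.03 (adjusted p = 1.3e-34), against 0.73 ± 0.029 for MED12 and 0.34 ± 0.029 for MED23. MED19 exceeded MED12 by 0.49 and MED23 by 0.89 ± 0.023 (adjusted p = 1.5e-23 and 3.7e-33).

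With vemurafenib TGFBI changed by 0.08 ± 0.023 in MED12, 0.27 ± 0.023 in MED19 and 0.22 ± 0.023 in MED23 knockout cells. These rises were smaller than that of control cells by -1.02 ± 0.04 (adjusted p = 7.6e-27), -0.84 ± 0.04 (adjusted p = 9.8e-23) and -0.88 ± 0.041 (adjusted p = 1.1e-23). The MED12 rise was 0.05 with guide 1 alone (adjusted p = 0.197) and 0.12 with guide 2 alone (adjusted p = 0.00181). Under the drug TGFBI was therefore lower than control in MED12 (-0.29 ± 0.028) and MED23 knockouts (-0.54 ± 0.028) and higher in MED19 knockouts (0.38 ± 0.029). The 2 MED19 guides differed here, at 542 ± 13.7 and 699 ± 8.61 CPM, a difference from control of 0.20 and 0.57.

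FN1 (ENSG00000115414, chromosome 2, 215360440 to 215436172, minus strand), the fibronectin through which cells attach by integrins, fell with the drug in control cells and fell in MED12 and MED19 knockouts in DMSO. In control cells vemurafenib took it from 221, 224 and 235 CPM to 164, 158 and 166.5 CPM (-0.48 ± 0.039, adjusted p = 1.5e-15). In DMSO it was at 128 ± 3.91 and 119.5 ± 6.82 CPM in MED12 and 128 ± 4.15 and 158 ± 2.15 in MED19 knockouts, falls of -0.88 ± 0.033 (adjusted p = 3.4e-28) and -0.67 ± 0.033 (adjusted p = 7.9e-23). In MED23 knockouts it was at 240 ± 14.7 and 271 ± 7.63 CPM, with a difference of 0.17 ± 0.033 (adjusted p = 4.1e-05) that was 0.08 with guide 1 alone (adjusted p = 0.115) and 0.26 with guide 2 alone (adjusted p = 2.2e-07). MED12 and MED23 knockouts thus differed by -1.05 ± 0.028 in DMSO (adjusted p = 4.8e-34).

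The drug's effect on FN1 had a different sign in MED12 knockouts. There it rose by 0.39 ± 0.027, to 158 ± 8.54 and 164 ± 2.42 CPM, whereas it fell by 0.31 in MED19 knockouts (-0.31 ± 0.028) and by 1.02 in MED23 knockouts (-1.02 ± 0.028), to 131 ± 2.34 and 122 ± 0.563 CPM. Against the change in control cells these differed by 0.86 ± 0.047 (adjusted p = 2.9e-21), 0.17 ± 0.048 (adjusted p = 0.00444) and -0.54 ± 0.047 (adjusted p = 2.0e-13). The MED19 value was lost with guide 2 alone (0.059, adjusted p = 0.512). Under the drug FN1 in MED12 knockouts differed from control by -0.01 ± 0.033 (adjusted p = 0.76).

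THBS1 (ENSG00000137801, chromosome 15, 39581079 to 39599466, plus strand) had the highest level per length of the members in every group of the 3 experiments. In control cells it rose with the drug from 1194, 1197 and 1104 CPM to 1565, 1481 and 1534 CPM (0.39 ± 0.035, adjusted p = 7.7e-14). In DMSO it was lower in MED12 (911 ± 47.7 and 909 ± 15.8 CPM) and MED19 knockouts (856 ± 29.1 and 849 ± 18.8 CPM), with differences of -0.36 ± 0.03 and -0.45 ± 0.03 (adjusted p = 1.4e-14 and 1.0e-17). MED23 knockouts went the other way, to 1423 ± 23.0 and 1464 ± 33.1 CPM (0.31 ± 0.031, adjusted p = 7.4e-12). The drug raised THBS1 in MED19 knockouts (0.49 ± 0.025), while in MED12 and MED23 knockouts the change was 0.01 ± 0.025 in each (adjusted p = 0.646 and 0.781, the former 0.0193 without the filter on low counts). Both of these differed from the change in control cells, by -0.38 ± 0.043 in each case (adjusted p = 2.1e-10 and 3.3e-10). The MED19 difference was 0.10 ± 0.043 (adjusted p = 0.0683), and it passed with DESeq2's size factors (0.0368) or Wald test (0.0457), without the filter (1.7e-04), with the compared groups alone (0.0185), and without control DMSO replicate 3 (0.0138), control vemurafenib replicate 1 (0.0487), MED19 guide 1 DMSO replicate 2 (0.0407) or guide 2 vemurafenib replicate 3 (0.0432). Exons of THBS1-AS1 and FSIP1 on the opposite strand cover 7.58% of its exon bases.

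TAGLN (ENSG00000149591, chromosome 11, 117199321 to 117204782, plus strand), an actin-binding protein of smooth muscle and myofibroblasts, was set apart by MED12. Control libraries held 2.11, 2.44 and 2.69 CPM in DMSO. MED12 knockout libraries held 19.4, 18.3 and 19.4 CPM with guide 1 and 23.5, 20.9 and 22.6 CPM with guide 2, an 8.43-fold rise (3.07 ± 0.076, adjusted p = 1.4e-35). MED19 (0.57 ± 0.08, adjusted p = 3.8e-08) and MED23 knockouts (0.60 ± 0.079, adjusted p = 1.1e-08) rose less, to between 3.38 and 3.88 CPM, and MED12 exceeded them by 2.50 ± 0.057 and 2.47 ± 0.056 (adjusted p = 1.2e-36 and 7.3e-37). Vemurafenib raised TAGLN in every genotype: to 6.74 ± 0.482 CPM in control cells (1.46 ± 0.085, adjusted p = 9.6e-21) and to 31.1 ± 1.9 and 42.7 ± 3.39 CPM in MED12 knockouts (0.82 ± 0.048). The 6 MED12 knockout libraries were the highest under either treatment. TAGLN shares 11.4% of its exon bases with PCSK7 on the opposite strand, and whether reads were counted by strand is not given in the sources used here.

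Markers of other cell types also differed in MED12 knockouts, though not only there. The summed level of fibroblast markers (PDGFRA, PDGFRB, DCN, LUM, COL3A1) was 20.5 to 21.5 CPM in control cells in DMSO and 53.9 to 58.2 CPM in MED12 knockouts, and 43.3 to 45.1 against 146 to 166 CPM under vemurafenib. All 5 were above 0 in these groups. In MED12 knockout cells in DMSO LUM made up most of the sum, at 34.2 and 33.5 CPM against 4.85 CPM in control cells. DCN was at 1.25 and 1.13 CPM there and at 1.17 CPM in control cells. The summed level of the melanocyte markers moved the other way, at 853 to 930.4 CPM in control and 164 to 212 CPM in MED12 knockouts in DMSO. Most of that sum was SOX10 alone, at 770.5 CPM in control and at 137.2 and 105.8 CPM with the MED12 guides. The melanocyte markers were also below control in MED19 and MED23 knockouts in DMSO, with sums of 474.9 to 635.2 and 359.8 to 411.8 CPM. Under vemurafenib the melanocyte markers summed to 2134 to 2191 CPM in control cells, with SOX10 at 1053 CPM. They summed to 151.7 to 190.1 CPM in MED12, 555.2 to 866.9 in MED19 and 470.5 to 583 CPM in MED23 knockouts. The 5 epithelial markers summed to 32.8 to 33.5 CPM in control and 50.1 to 53.6 CPM in MED12 knockouts in DMSO, and to 34.2 to 35.6 against 98.9 to 111.9 CPM under vemurafenib. The 4 endothelial markers went from 8.61 to 8.93 CPM in control to between 4.00 and 5.17 CPM in MED12 knockouts in DMSO. In MED19 and MED23 knockouts in DMSO they summed to 3.82 to 5.17 and 4.27 to 5.585 CPM. Fibroblast markers there summed to 20.15 to 26.5 and 30.7 to 34.9 CPM in DMSO, and to 45.5 to 66.6 and 88.8 to 97.8 CPM under vemurafenib. Epithelial markers there summed to 33.5 to 37.8 and 26.9 to 29.7 CPM in DMSO, and to 45.6 to 56.4 and 44.35 to 51.7 CPM under vemurafenib. In such bulk RNA, more cells of a type and more RNA per cell cannot be told apart, and the part of these markers in the TAGLN result was not tested.

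In counts, all 9 members passed with vemurafenib in control cells, 7 higher and 2 lower, where 66.2% of all genes tested passed (35.8% higher, 30.3% lower). In DMSO 8 members passed in MED12 knockouts (6 higher, 2 lower), against 54.9% of all genes (27.9% and 27.0%). In MED19 knockouts 8 passed (5 and 3), against 40.6% (20.4% and 20.2%), and in MED23 knockouts 9 (8 and 1), against 36.9% (18.4% and 18.5%). Under vemurafenib 7 passed in MED12 (4 and 3), against 62.2% (32.5% and 29.6%), 8 in MED19 (5 and 3), against 43.7% (23.1% and 20.7%), and 8 in MED23 knockouts (3 and 5), against 47.3% (24.6% and 22.7%). The last count was 6 to 9 without any 1 of its libraries. Of these 8, THBS1 was lost with DESeq2's size factors (-0.070, adjusted p = 0.0561), its Wald test (0.0784), guide 1 alone (0.0785) or guide 2 alone (0.115). It was also lost without replicate 1 or 3 of the control or of either MED23 guide (0.058 to 0.272). The drug's change within MED12, MED19 and MED23 knockouts passed for 8, 9 and 8 members (63.2%, 70.3% and 69.5% of all genes). The interaction with the drug passed for 9 members in MED12 (4 positive, 5 negative), against 49.0% of all genes (24.9% and 24.2%), 6 in MED19 (2 and 4), against 32.6% (17.4% and 15.2%), and 8 in MED23 knockouts (1 and 7), against 34.8% (18.5% and 16.2%).

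Between knockouts in DMSO 8 members passed for MED12 against MED19 (46.8% of all genes), 8 for MED12 against MED23 (50.8%) and 6 for MED19 against MED23 (33.7%), and under vemurafenib 8, 9 and 7 (55.3%, 55.7% and 36.5%). A large share of the transcriptome thus passed in each of these comparisons, at this depth. With a 2-fold minimum as well, 4 members passed with the drug in control cells (29.7% of all genes), 2 for MED12 (15.6%), 1 for MED19 (6.30%) and 1 for MED23 in DMSO (6.79%). The median of the members was 0.69 with the drug in control cells (0.11 over all genes), and 0.22, 0.21 and 0.31 for MED12, MED19 and MED23 loss in DMSO (0.00, 0.00 and 0.01 over all genes).

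**Figure D3:**
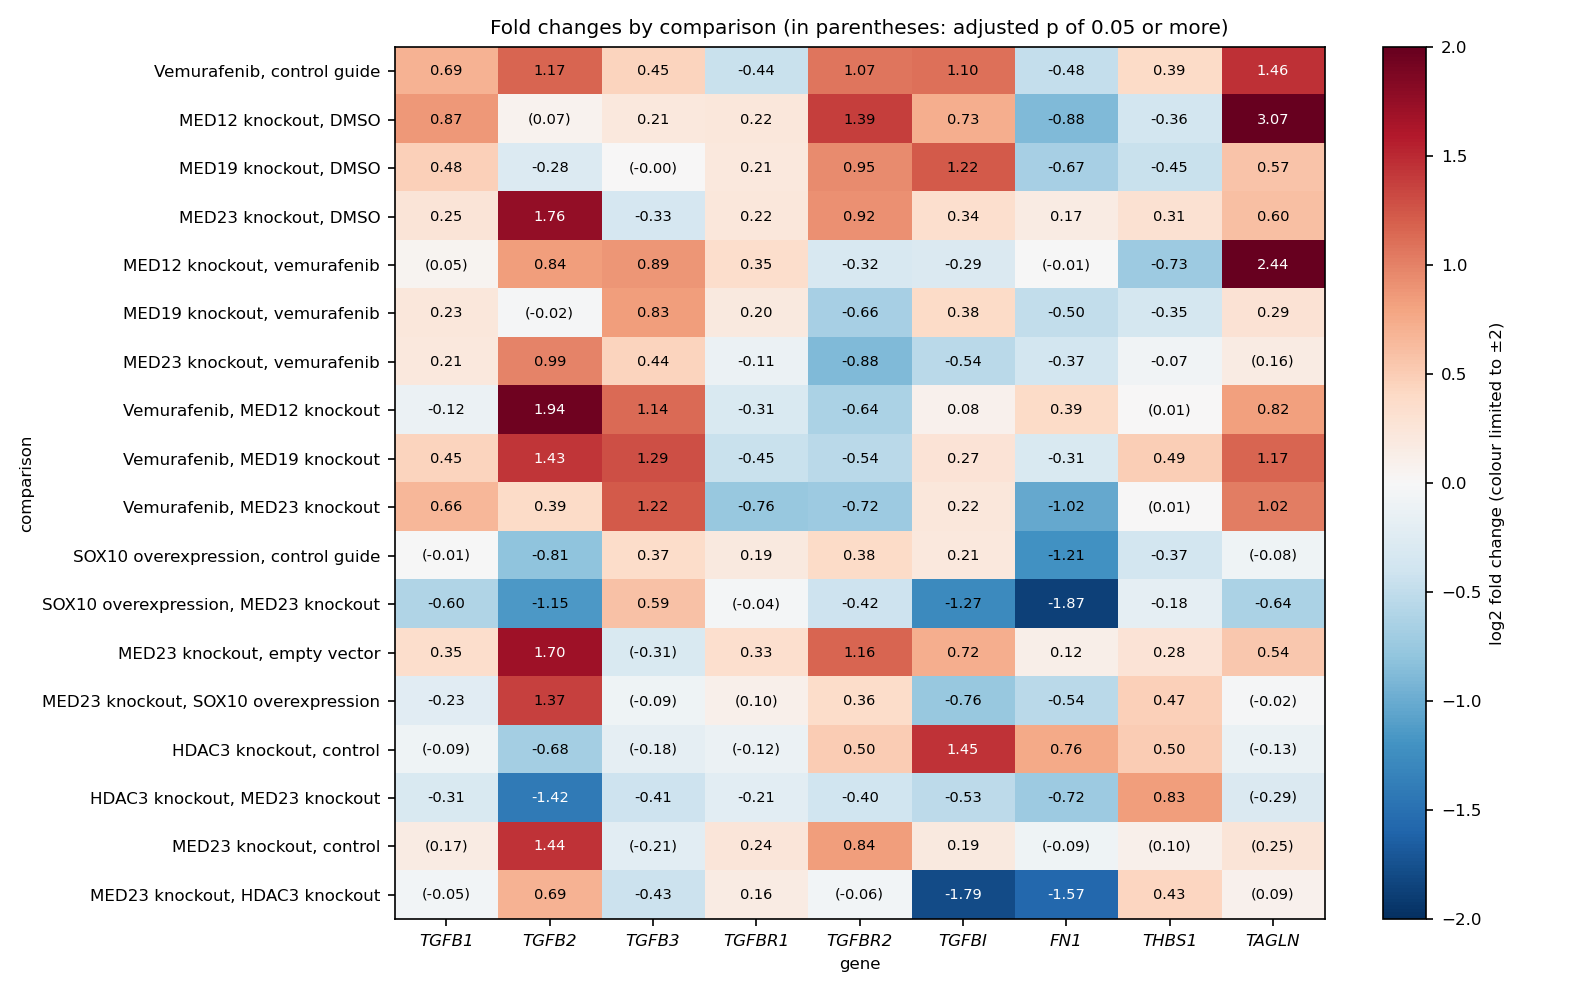
Log2 fold change of each gene (columns) in 18 comparisons (rows) of the 3 experiments, with colour limited to ±2 and values with an adjusted p of 0.05 or more in parentheses. Rows share control libraries within an experiment. The TGFBR2 column is positive for loss of each Mediator subunit in DMSO (0.92 to 1.39) and negative under vemurafenib (-0.88 to -0.32).

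The members did not follow 1 common pattern over the 14 group means of the Mediator experiment. Of their pairs, TGFB1 and TGFB3 were most alike (Pearson r = 0.72 of mean log2 CPM) and TGFB1 and FN1 least (r = -0.87). The receptors had r = 0.62 with each other. Among 12187 genes with a mean log2 CPM of at least 2, the 3 most like TAGLN were TRIM22 (r = 0.987), HERC6 (0.980) and GDPD5 (0.979). For TGFB2 they were CD24 (0.932), HDLBP (0.913) and PDE5A (0.912), for TGFB3 SLC16A5 (0.979), MGST3 (0.973) and PDIA3P1 (0.971), and for TGFB1 H3C6 (0.960), ZSCAN26 and SLC25A12 (0.955 each). TGFBR1 was most like PRKAA1 (0.983), NT5E (0.982) and KRT8P12 (0.982), and TGFBR2 most like ZNF41 (0.952), PKIA (0.951) and OSTF1 (0.925). For TGFBI, LINC00869 (0.902), FAM225A (0.901) and LINC00888 (0.896) came closest, for FN1 SRD5A1 (0.961), DZIP1 (0.916) and ACACA (0.911), and for THBS1 SPOCK1 (0.939), SIPA1L2 (0.936) and LPAR1 (0.935). These correlations describe 14 points that share controls and treatments, and carry no test.

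The other genes of the pathway came from a list of 37 (latency and activation, co-receptors, SMADs, inhibitors, responders), of which 36 were tested here; CDKN2B was not. In DMSO 31 of the 36 passed in MED12 knockouts (22 higher, 9 lower), where 54.9% of all genes passed (27.9% and 27.0%). In MED19 knockouts 28 passed (21 and 7), against 40.6% (20.4% and 20.2%), and in MED23 knockouts 30 (22 and 8), against 36.9% (18.4% and 18.5%). Their medians were 0.45, 0.23 and 0.24, against 0.00, 0.00 and 0.01 over all genes. Among the responders, CCN2, a matricellular protein that is also a target of YAP, was at 49.8 ± 1.23 CPM in control cells and at 403 ± 23.2 and 434.5 ± 20.3 CPM in MED12 knockouts (3.07 ± 0.058, adjusted p = 2.4e-40). No library of these knockouts overlapped the control libraries. COL1A1, the collagen chain, rose by 2.87 ± 0.069 in MED12, 1.00 ± 0.071 in MED19 and 1.79 ± 0.069 in MED23 knockouts.

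Inhibitors and latency genes showed both directions. BAMBI, a decoy receptor, fell by 1.67 in MED12 knockouts (-1.67 ± 0.044), and PMEPA1, which sequesters SMADs, fell by 0.99 in MED23 knockouts (-0.99 ± 0.039). In DMSO PMEPA1 was lower in MED12 than in MED19 knockouts (-1.75 ± 0.034) and higher in MED19 than in MED23 knockouts (1.12 ± 0.033). Of the knockouts, PMEPA1 was thus lowest with MED12 loss. LTBP2, of the family of proteins that bind latent TGF-beta, rose by 1.14 ± 0.067 in MED19 and by 1.26 ± 0.067 in MED23 knockouts, and LTBP1 rose by 0.97 ± 0.054 in MED19 knockouts. Against MED23 knockouts in DMSO, LTBP1 was higher by 1.64 ± 0.043 in MED12 and by 1.12 ± 0.044 in MED19 knockouts. Of the knockouts, LTBP1 was thus highest with MED12 loss. With vemurafenib in control cells 30 of the 36 passed (11 higher, 19 lower), against 66.2% of all genes (35.8% and 30.3%). TGM2, a transglutaminase, fell by 2.43 (-2.43 ± 0.049), while ACTA2, smooth muscle actin, rose by 2.02 ± 0.06, LTBP1 by 1.39 ± 0.06 and PMEPA1 by 1.36 ± 0.046. The drug lowered PMEPA1 in each knockout (-0.37 ± 0.035, -0.58 ± 0.033 and -0.76 ± 0.035 for MED12, MED19 and MED23), and under vemurafenib it was lower than control by 3.34 in MED12 (-3.34 ± 0.039), 1.81 in MED19 (-1.81 ± 0.038) and 3.11 in MED23 knockouts (-3.11 ± 0.04). Its interactions were -1.73 ± 0.058, -1.94 ± 0.057 and -2.12 ± 0.058. SMAD3 was higher than control under the drug, by 0.91 ± 0.026 in MED19 and 1.24 ± 0.026 in MED23 knockouts.

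**Figure D4:**
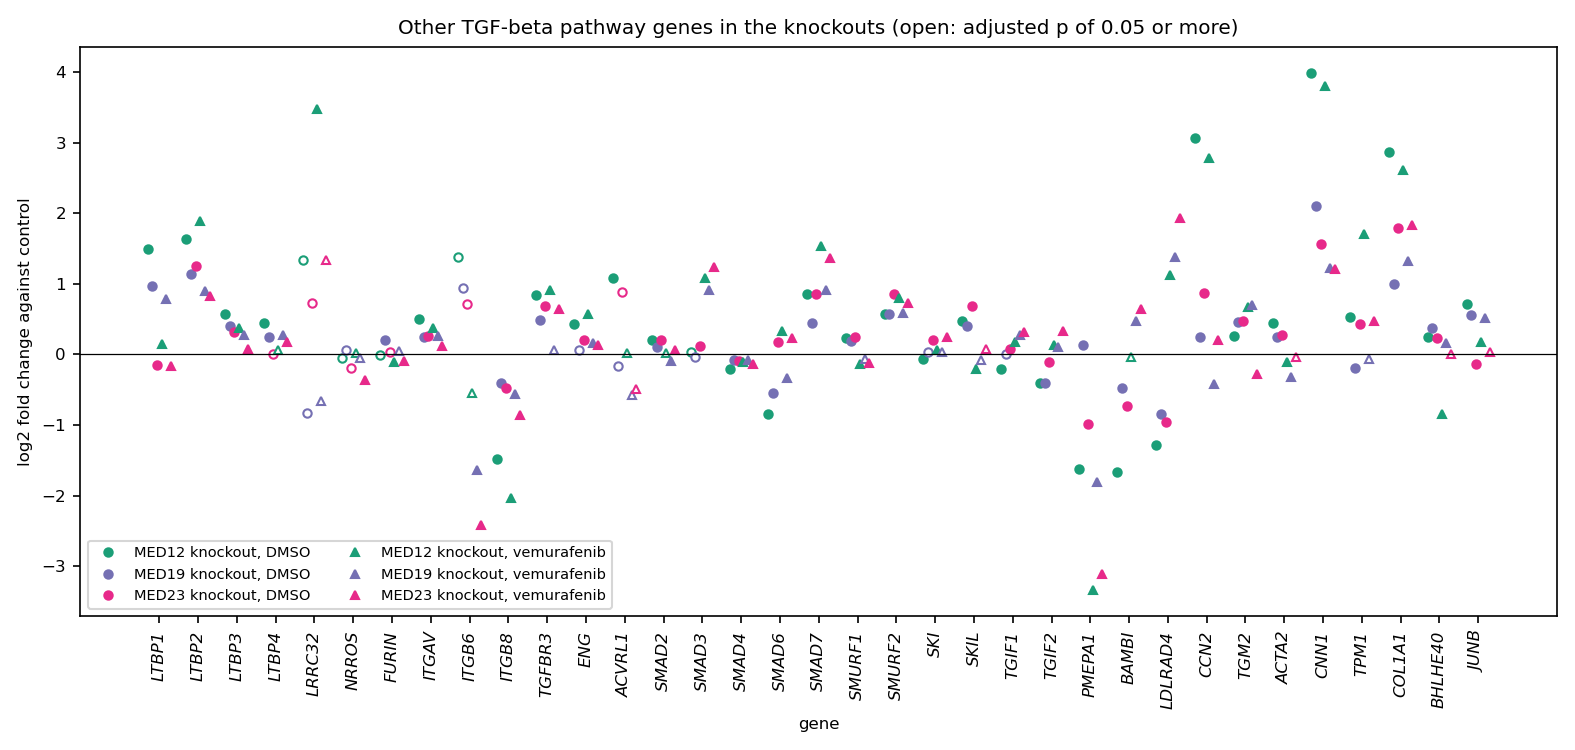
Log2 fold change against the control of the same treatment (vertical axis) for 35 of the 36 other pathway genes tested in the Mediator experiment (horizontal axis). Circles are DMSO, triangles vemurafenib, colours the subunits, and open symbols an adjusted p of 0.05 or more. CCN2 reaches 3.07 in MED12 knockouts in DMSO and PMEPA1 reaches -3.34 under vemurafenib.

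In the SOX10 experiment the question was what SOX10 does to these genes with and without MED23. FN1 was the member that answered most strongly. It fell with SOX10 from 260.0, 263 and 262 CPM to 115, 116.5 and 107 CPM in control cells, by 1.21 (-1.21 ± 0.036, adjusted p = 8.1e-21). In MED23 knockouts it fell from 282, 277 and 293 CPM to 82.2, 75.3 and 76.0 CPM, by 1.87 (-1.87 ± 0.037, adjusted p = 1.5e-25). The fall was larger in MED23 knockouts by -0.66 ± 0.052 (adjusted p = 7.8e-11).

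TGFBI and TGFBR2 changed in opposite directions in the 2 genotypes. SOX10 raised TGFBI a little in control cells, from 231 ± 7.58 to 266 ± 4.47 CPM (0.21 ± 0.033, adjusted p = 1.5e-05), and lowered it in MED23 knockouts, from 379 ± 15.1 to 157 ± 1.37 CPM (-1.27 ± 0.033, adjusted p = 7.7e-23). The interaction was -1.48 ± 0.047 (adjusted p = 2.2e-19). TGFBR2 rose with SOX10 in control cells from 45.5 ± 2.43 to 59.2 ± 2.11 CPM (0.38 ± 0.043) and fell in MED23 knockouts from 101.5 ± 2.15 to 76.2 ± 2.2 CPM (-0.42 ± 0.038), with an interaction of -0.79 ± 0.057 (adjusted p = 1.6e-11).

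Of the ligands, TGFB2 fell with SOX10 in both genotypes, by 0.81 in control cells (-0.81 ± 0.17, adjusted p = 5.8e-04) and by 1.15 in MED23 knockouts (-1.15 ± 0.11, adjusted p = 7.1e-10), and the 2 falls differed by -0.33 ± 0.21 (adjusted p = 0.331). The libraries of control cells held 73, 62 and 66 reads of TGFB2 with the empty vector and 38, 33 and 49 with SOX10. TGFB1 did not pass in control cells (-0.01 ± 0.035, adjusted p = 0.875) and fell in MED23 knockouts from 110.0 ± 3.21 to 72.8 ± 1.7 CPM (-0.60 ± 0.035, adjusted p = 1.1e-14). TGFB3 rose in both (0.37 ± 0.13, adjusted p = 0.0401, and 0.59 ± 0.14, adjusted p = 9.3e-04), the former no longer past the test with DESeq2 (0.116) or without any control library but SOX10 replicate 3 (0.0581 to 0.164). THBS1 fell in both as well, by 0.37 (-0.37 ± 0.036) and 0.18 (-0.18 ± 0.036). TAGLN fell in MED23 knockouts (-0.64 ± 0.17, adjusted p = 0.00264) and was at -0.08 ± 0.18 in control cells (adjusted p = 0.816). Its interaction did not pass (-0.56 ± 0.25, adjusted p = 0.138), but did without control empty vector replicate 1 (0.0418) or MED23 empty vector replicate 3 (0.0489).

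With SOX10, 7 members passed in control cells (4 higher, 3 lower), where 22.6% of all genes tested passed (11.6% higher, 11.0% lower). In MED23 knockouts 8 passed (1 higher, 7 lower), against 41.9% of all genes (21.2% and 20.7%), and the interaction passed for 6 (1 positive, 5 negative), against 14.7% (7.64% and 7.04%). Their median was -0.01 in control cells and -0.60 in MED23 knockouts, against -0.00 over all genes in each. MED23 loss with the empty vector raised 8 members and lowered none (43.4% of all genes passed, 21.2% higher and 22.3% lower), among them TGFB2 by 1.70 ± 0.12 and TGFBR2 by 1.16 ± 0.041. With SOX10 present, 6 passed for MED23 loss (3 and 3), against 32.4% of all genes (16.1% and 16.3%). MED23 knockout cells with SOX10 still differed from control cells with the empty vector in 7 members (4 higher, 3 lower), against 33.4% of all genes (16.6% and 16.9%): TGFBR2 stood 0.74 ± 0.042 and TGFB2 0.55 ± 0.14 above them, and FN1 -1.75 ± 0.037 and TGFBI -0.55 ± 0.034 below. The rescued cells were thus further from control than the unrescued cells for FN1, for which MED23 loss alone gave 0.12 ± 0.034. Of 33 other pathway genes tested, 16 passed with SOX10 in control cells (6 higher, 10 lower, against 22.6% of all genes) and 25 in MED23 knockouts (8 and 17, against 41.9%). COL1A1 fell in both, by 1.12 (-1.12 ± 0.13) and 1.35 (-1.35 ± 0.086), and LTBP1 rose in both, by 0.89 ± 0.092 and 1.00 ± 0.089. Fibroblast markers summed to 19.4 to 21.2 CPM in control cells and to 29.2 to 32.6 CPM in MED23 knockouts of this experiment, with either vector. Endothelial markers summed to 11 to 12.3 CPM in control cells and 6.57 to 7.81 CPM in MED23 knockouts, with either vector. Epithelial markers summed to 34.3 to 36.4 CPM in control cells with the empty vector and 19.5 to 22.2 with SOX10. In MED23 knockouts they summed to 27.65 to 30.65 and 22.2 to 22.6 CPM. Melanocyte markers, which include SOX10 itself, summed to 639 to 654 CPM in control cells with the empty vector and 798 to 829 with SOX10, and to 329 to 345 and 562 to 575 CPM in MED23 knockouts. SOX10 alone was at 525 and 600.2 CPM in control cells and at 246 and 429 CPM in MED23 knockouts, so these sums partly restate the overexpression. The part of these markers in the results was not tested.

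In the HDAC3 experiment the comparisons asked what HDAC3 loss changes with and without MED23. The 3 control columns of that table carry the name GFP and were matched to the control samples by elimination. TGFBI rose with HDAC3 loss in control cells, from 206, 204 and 207 CPM to 568, 565 and 549 CPM, a 2.73-fold rise (1.45 ± 0.045, adjusted p = 7.5e-17). In MED23 knockouts it fell, from 251, 232 and 220.2 CPM to 162, 166 and 159.5 CPM (-0.53 ± 0.045, adjusted p = 3.2e-09). FN1 did the same, rising from 171 ± 7.06 to 290 ± 19.0 CPM (0.76 ± 0.053, adjusted p = 7.5e-11) and falling in MED23 knockouts from 161 ± 9.34 to 97.7 ± 3.85 CPM (-0.72 ± 0.054, adjusted p = 3.9e-10). The interactions were -1.98 ± 0.063 for TGFBI (adjusted p = 1.9e-15) and -1.48 ± 0.075 for FN1 (adjusted p = 3.7e-12).

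TGFBR2 followed these 2 genes, with 0.50 ± 0.051 in control cells, -0.40 ± 0.051 in MED23 knockouts and an interaction of -0.90 ± 0.072 (adjusted p = 4.4e-09). THBS1 did not: it rose with HDAC3 loss in both, from 1526 ± 40.0 to 2159 ± 132 CPM in control cells (0.50 ± 0.047) and from 1635 ± 36.2 to 2907 ± 189 CPM in MED23 knockouts (0.83 ± 0.047, adjusted p = 3.4e-12). The second rise was larger by 0.33 ± 0.066 (adjusted p = 7.5e-04), and the double knockouts had the highest THBS1 of the experiment, 0.93 ± 0.047 above control (adjusted p = 7.5e-13). MED23 loss without HDAC3 loss had no passing change of THBS1 here (0.10 ± 0.046, adjusted p = 0.135).

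TGFB2 again marked MED23 loss. It rose from 2.71, 2.89 and 2.56 CPM in control cells to 7.33, 7.30 and 7.46 CPM in MED23 knockouts (1.44 ± 0.11, adjusted p = 1.1e-09). With HDAC3 lost as well it was at 2.85, 2.28 and 3.10 CPM, a fall of 1.42 (-1.42 ± 0.12, adjusted p = 2.3e-09), and the difference between double knockouts and controls was 0.01 ± 0.12 (adjusted p = 0.955). HDAC3 loss alone lowered it to 1.70 ± 0.186 CPM (-0.68 ± 0.13, adjusted p = 1.8e-04), and the 2 falls differed by -0.75 ± 0.18 (adjusted p = 0.00352). Of the 6 comparisons of this experiment TGFB1 passed for HDAC3 loss in MED23 knockouts (-0.31 ± 0.069, adjusted p = 9.9e-04). Its difference between double knockouts and controls passed without the filter on low counts (adjusted p = 0.0263), and its interaction without HDAC3 knockout replicate 3 (0.0475). TAGLN, at 1.64 to 2.13 CPM in the 4 groups, passed in none of the 6 comparisons of this experiment. TGFB3 was lowest in double knockouts, at 2.38 ± 0.482 CPM against 3.67 ± 0.398 in controls (-0.62 ± 0.14, adjusted p = 0.00165).

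**Figure D5:**
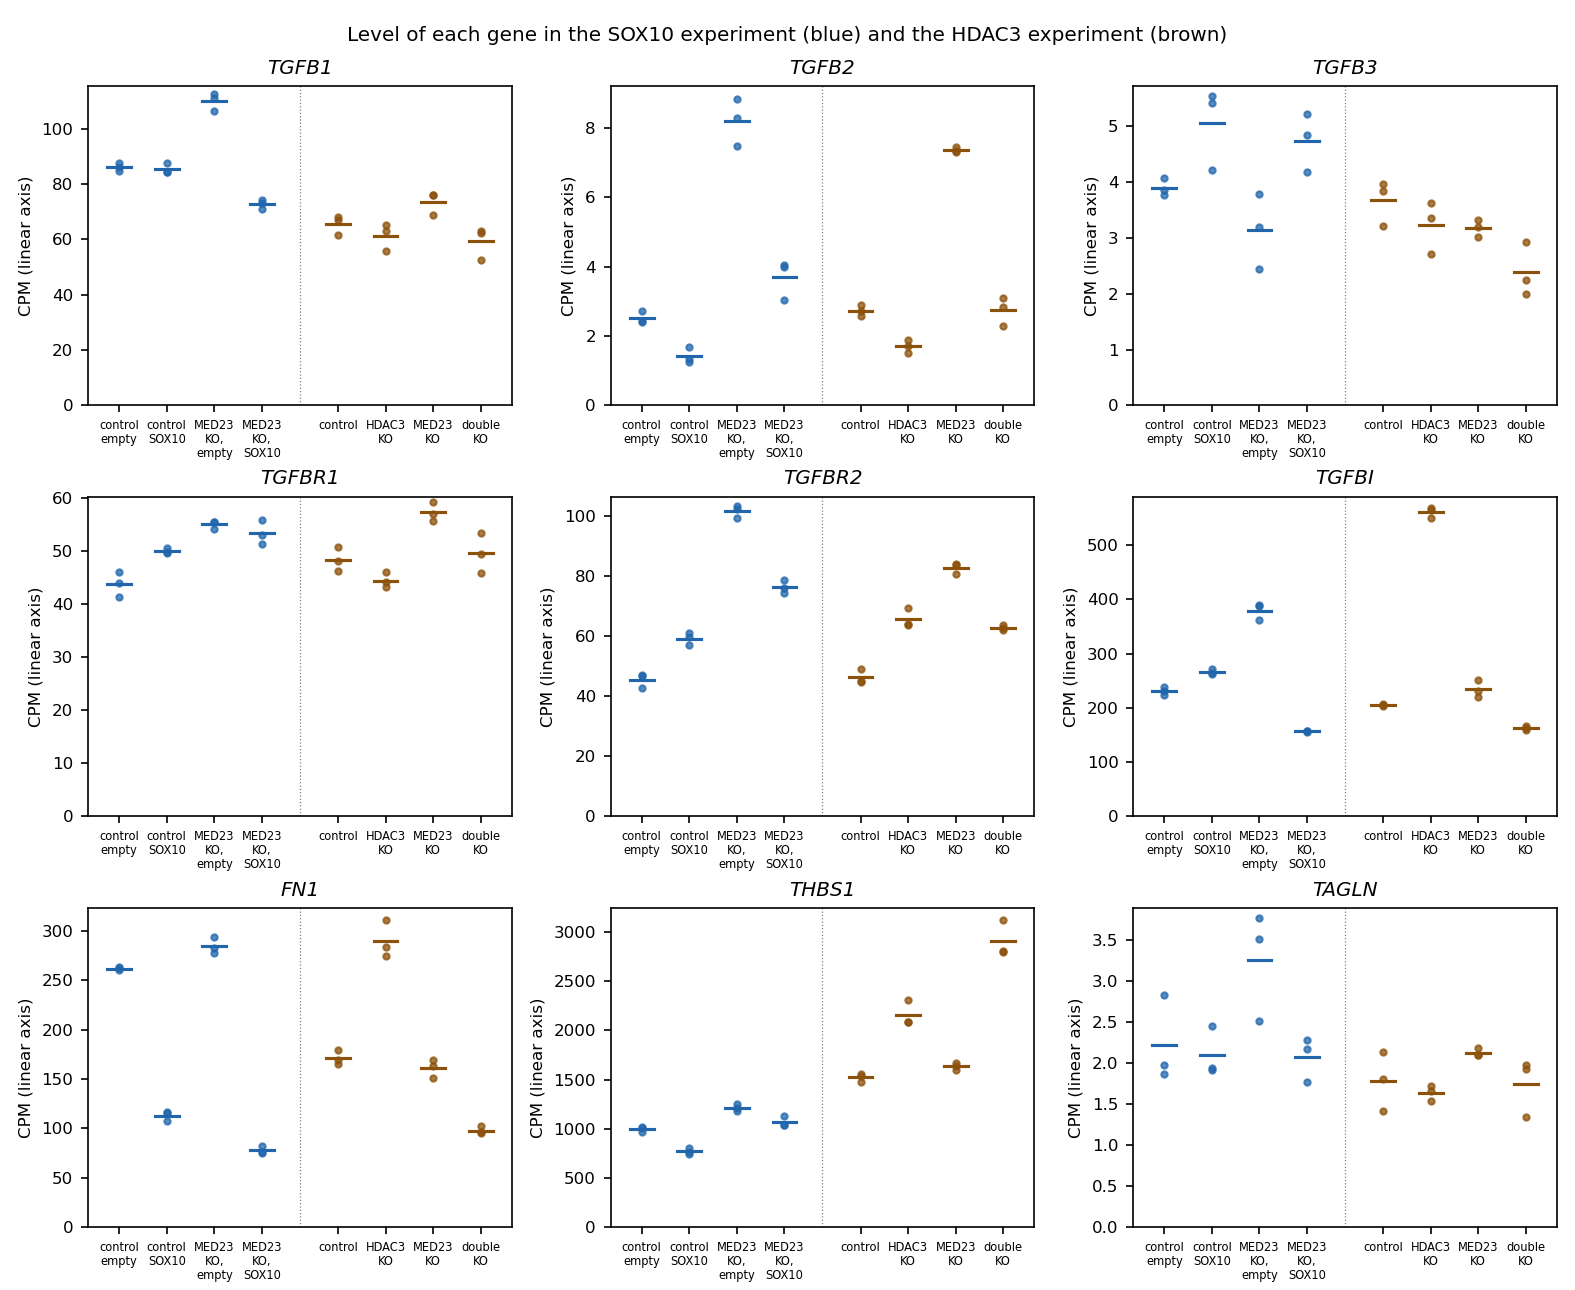
Level in CPM (linear axis from 0) of the 9 genes in the SOX10 experiment (blue, left) and the HDAC3 experiment (brown, right), normalised separately. Points are libraries and bars are means of 3 libraries. TGFBI is highest in HDAC3 knockouts (560.5 CPM) and TGFB2 is highest in MED23 knockouts with the empty vector (8.19 CPM) or with HDAC3 intact (7.36 CPM).

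HDAC3 loss changed 5 members in control cells (4 higher, 1 lower), where 42.1% of all genes tested passed (21.2% higher, 20.9% lower). In MED23 knockouts it changed 8 (1 higher, 7 lower), against 38.0% of all genes (19.1% and 18.9%), and the interaction passed for 5 (1 positive, 4 negative), against 20.5% (10.0% and 10.5%). MED23 loss changed 4 members with HDAC3 intact, all higher, against 24.3% of all genes (12.3% and 12.0%), and 6 without it (3 and 3), against 35.5% (17.2% and 18.3%). The last count was 4 or 5 without any 1 of its libraries. Of the 6, TGFB3 was lost without double knockout replicate 1 or 2 or HDAC3 knockout replicate 1 or 3 (adjusted p = 0.074 to 0.127). TGFBR1 was lost without double knockout replicate 2 or 3 or HDAC3 knockout replicate 1 or 2 (0.0812 to 0.2), and with the compared groups alone (0.0751). Of the 8 members changed by HDAC3 loss in MED23 knockouts, TGFB3 was lost without double knockout replicate 1 or 2 or MED23 knockout replicate 1 or 3 (0.0593 to 0.145). Double knockouts differed from control in 5 (2 higher, 3 lower), against 36.6% (18.2% and 18.4%). TGFBI and FN1 had the largest falls with MED23 loss in HDAC3 knockouts, of 1.79 (-1.79 ± 0.046) and 1.57 (-1.57 ± 0.054). Of 34 other pathway genes tested, 24 passed for HDAC3 loss in control cells (13 higher, 11 lower, against 42.1% of all genes) and 22 in MED23 knockouts (12 and 10, against 38.0%). PMEPA1 rose in both (1.28 ± 0.046 and 0.92 ± 0.046), as did BAMBI (1.11 ± 0.05 and 1.05 ± 0.052). Endothelial markers summed to 8.72 to 9.9 CPM in controls, 25.5 to 28.9 CPM in HDAC3 knockouts and 19.4 to 20.7 CPM in double knockouts. Melanocyte markers summed to 564 to 576 CPM in controls, 305 to 319.5 CPM in MED23 knockouts, 984 to 1010 CPM in HDAC3 knockouts and 494 to 552 CPM in double knockouts. SOX10, which is part of that sum, was at 448.5, 225.5, 470.3 and 387.3 CPM in these groups. Fibroblast markers summed to 19.3 to 21.7 CPM in controls, 29.8 to 32.4 in MED23 knockouts, 25.9 to 28.6 in HDAC3 knockouts and 41.8 to 45.8 CPM in double knockouts, and epithelial markers to 30.3 to 30.8, 21.2 to 21.7, 17.9 to 19.4 and 24.6 to 27.9 CPM. The part of these markers in the results was not tested.

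MED23 loss without drug was thus measured in 3 experiments, which were normalised apart and can only be set side by side. TGFB2 rose in each, by 1.76 ± 0.082, 1.70 ± 0.12 and 1.44 ± 0.11, and so did TGFBR2, by 0.92 ± 0.029, 1.16 ± 0.041 and 0.84 ± 0.051, TGFBR1, by 0.22 ± 0.036, 0.33 ± 0.043 and 0.24 ± 0.057, and TGFBI, by 0.34 ± 0.029, 0.72 ± 0.033 and 0.19 ± 0.044. These 4 passed in all 3 experiments. MED23 loss passed for 36.9%, 43.4% and 24.3% of all genes tested in the single experiments. The share of all genes that passed in all 3 was not counted. TGFB1, THBS1, TAGLN and FN1 passed in the Mediator and SOX10 experiments but not in the HDAC3 experiment, where TGFB1 was at 0.17 ± 0.068 (adjusted p = 0.0789, but 0.0337 without the filter on low counts and 0.0243 with the compared groups alone), THBS1 at 0.10 ± 0.046 (adjusted p = 0.135, but 0.0298 with the compared groups alone) and FN1 at -0.09 ± 0.053 (adjusted p = 0.267). TAGLN lost its call in the SOX10 experiment without control replicate 2 (adjusted p = 0.0511) or 3 (0.0713) or MED23 replicate 1 (0.0747). TGFB3 passed only in the Mediator experiment, and without MED23 empty vector replicate 3 also in the SOX10 experiment (-0.470, adjusted p = 0.0217).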

How the data were processed

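Per the submitters' processing notes, the tools bcl2fastq, HISAT2 and HTSeq and the build hg38 were used (versions, annotation, strand setting: not given in the sources used here). The authors deposited 3 tables of raw read counts per Ensembl gene, 1 per experiment, made per the labels from poly(A) RNA with a stranded kit. The 3 tables were fitted separately. Gene symbols and exon lengths came from GENCODE annotation on GRCh38. Column names were matched to sample titles, and 3 control columns of the HDAC3 table were matched by elimination.

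Genes were kept by edgeR's filterByExpr (minimum count 10, minimum total 15), scaled by TMM and tested with edgeR 4.0.16 (R 4.3.3) by the quasi-likelihood test over 27453, 18009 and 21139 genes in the Mediator, SOX10 and HDAC3 experiments. The code was tested on simulated counts. CPM are the deposited counts per M counts of the TMM-scaled library, and RPKM are CPM per kilobase of exon. Median depth was 112.6, 27.71 and 68.52 M counts. Alternatives were DESeq2 1.42.0, its size factors, no filter on low counts, a fit of the compared groups alone, each guide alone, a replicate block, a 2-fold minimum and leaving out each library.

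Replicate numbers were checked as pairs from the correlation of same-numbered libraries' deviations from their group means, which averaged 0.006 (Mediator), 0.043 (SOX10) and 0.214 (HDAC3). Only in the comparison of double with MED23 knockouts was every pair above 0.1 (0.152 to 0.332), and these were taken as pairs. The values reported are without the block, which changed no call there. The members and gene lists were chosen with earlier results of these data known. Other pathway genes named are, in each comparison, the 4 with the largest change among those that passed, with a mean log2 CPM of at least 2. 1 of them is not reported here, though the counts over the list include it.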

Additional observations from a re-analysis of the deposited data

Results flagged for a closer look

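Each result here is an interaction, the change in knockout cells minus the change in control cells on the log2 scale by edgeR's quasi-likelihood test, that passed at an adjusted p under 0.05 over all genes. The effect of vemurafenib on TGFBR2 differed most, by -1.71 with MED12, -1.61 with MED19 and -1.79 with MED23 loss, and that on TGFBI by -1.02, -0.84 and -0.88. For TGFB3 the differences were 0.68, 0.83 and 0.77, and for TAGLN -0.64, -0.29 and -0.44. FN1 differed by 0.86, 0.17 and -0.54, where the MED19 value was lost with guide 2 alone (0.059, adjusted p = 0.512). TGFB1 passed with MED12 (-0.82) and MED19 (-0.25), TGFB2 with MED12 (0.77) and MED23 (-0.78), TGFBR1 with MED12 (0.13) and MED23 (-0.32), and THBS1 with MED12 (-0.38) and MED23 (-0.38). With MED19 loss THBS1 did not pass (0.10, adjusted p = 0.0683), but did with DESeq2's size factors, its Wald test, no filter, the compared groups alone and without any of 4 libraries (adjusted p = 1.7e-04 to 0.0487). TGFB2 with MED19 loss passed with guide 2 alone (0.455, adjusted p = 0.0111), and without control DMSO replicate 1 (0.0432) or MED19 guide 1 vemurafenib replicate 1 (0.0425). Of these, the TGFBR1 result with MED12 was lost without control DMSO replicate 1, control vemurafenib replicate 2 or 3, or MED12 guide 1 replicate 2 in either treatment, guide 2 DMSO replicate 2 or guide 2 vemurafenib replicate 1 (adjusted p = 0.0508 to 0.133), and with guide 2 alone (0.103, adjusted p = 0.156). The TAGLN result with MED19 was lost without replicate 1 or 2 of the control in either treatment, MED19 guide 1 DMSO replicate 3 or guide 2 DMSO replicate 2 (adjusted p = 0.0542 to 0.143), with guide 2 alone (-0.193, adjusted p = 0.291) and with the compared groups alone (-0.289, adjusted p = 0.0525).

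The effect of SOX10 differed between MED23 knockout and control cells for TGFBI (-1.48), TGFBR2 (-0.79), FN1 (-0.66), TGFB1 (-0.58), TGFBR1 (-0.23) and THBS1 (0.19). The effect of HDAC3 loss differed for TGFBI (-1.98), FN1 (-1.48), TGFBR2 (-0.90), TGFB2 (-0.75) and THBS1 (0.33). TGFBI, TGFBR2, FN1 and THBS1 thus passed in both experiments, with the same sign in each. Of all genes tested, 14.7% passed in the SOX10 and 20.5% in the HDAC3 interaction. The share of all genes that passed in both was not counted. The causes were not tested.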

How the results depend on the processing

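With no filter on low counts, DESeq2's size factors, the DESeq2 Wald test, only the compared groups, each guide alone, a replicate block or without any 1 library, the number of members that passed stayed within 1.5 times the reported one in each of the 31 comparisons. A 2-fold minimum, which 1.55 to 29.7% of all genes passed, took it below that. With it 4 members passed with vemurafenib in control cells (29.7% of all genes). For MED12, MED19 and MED23 loss 2, 1 and 1 passed in DMSO (15.6%, 6.30% and 6.79% of all genes). Under vemurafenib 1, 0 and 0 passed for the same (21.0%, 8.11% and 11.6%). With vemurafenib in the knockouts 2, 3 and 3 passed (15.7%, 25.6% and 25.6%), and 2, 1 and 1 in the interactions (14.7%, 5.13% and 6.35%). It left 1, 3 and 1 for MED12 against MED19, MED12 against MED23 and MED19 against MED23 in DMSO (9.25%, 10.3% and 3.84% of all genes). Under vemurafenib these were 1, 1 and 1 (12.0%, 12.1% and 4.36%). In the SOX10 experiment it left 1 and 3 for SOX10 in control and MED23 knockout cells (2.38% and 5.42% of all genes). For MED23 loss without and with SOX10 it left 2 and 1 (5.51% and 3.30%). Rescued cells kept 1 (2.78%) and the interaction 1 (1.55%). In the HDAC3 experiment it left 1 and 1 for HDAC3 loss in control and MED23 knockout cells (8.19% and 6.03% of all genes). For MED23 loss with HDAC3 intact and lost it left 1 and 2 (4.76% and 6.41%). Double knockouts kept 0 (5.00%) and the interaction 2 (3.55%).

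Adding the replicate number as a block left the 8 members that passed for HDAC3 loss in MED23 knockouts at 8, the comparison whose numbers were taken as pairs, and changed no sign. In the other comparisons, where not every same-numbered pair was above 0.1, it added 3 calls, all in the HDAC3 experiment: TGFB1 in double knockouts (-0.147, adjusted p = 0.0402) and with MED23 loss (0.164, adjusted p = 0.0283), and TGFBR1 with HDAC3 loss (-0.121, adjusted p = 0.0381). In that experiment 72.2% of same-numbered pairs lay above 0.1, so a shared replicate effect there is possible.

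Sign changes concerned values that had not passed. For FN1 with MED12 loss under vemurafenib the value was 0.002 with DESeq2's size factors and with the Wald test, 0.015 with guide 2 alone and 0.013 without the filter. The TGFBR1 interaction of MED19 was 0.005 with the size factors and the Wald test and 0.027 without the filter. For TGFBR1 between MED12 and MED23 knockouts in DMSO it was -0.014 with the size factors and the Wald test, -0.024 with guide 1, -0.006 without the filter and -0.004 with the compared groups alone. THBS1 with the drug in MED23 knockouts was at -0.000 with the size factors and the Wald test, -0.009 with guide 2 and -0.014 with the compared groups alone. With guide 1 alone TAGLN between MED19 and MED23 knockouts in DMSO was 0.084, the TGFB1 interaction of MED23 0.038, TGFB2 with MED12 loss in DMSO -0.022 and with MED19 loss under the drug 0.028, TGFBR1 between MED12 and MED19 knockouts in DMSO -0.004, and THBS1 with the drug in MED12 knockouts -0.036. With guide 2 alone TGFB3 with MED19 loss in DMSO was 0.031 (0.000 with the compared groups alone), and between MED19 and MED23 knockouts in DMSO TGFBR1 was 0.001 and TGFBR2 -0.114, which passed (adjusted p = 0.00471), against 0.190 with guide 1. Without the filter TGFB2 was -0.005 in double knockouts and 0.005 with MED19 loss under the drug.

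Without 1 library, no value that had passed changed sign. Those that had not passed and did so ranged, under vemurafenib, from -0.029 to 0.011 for FN1 with MED12 loss and from -0.058 to 0.027 for TGFB2 with MED19 loss. THBS1 with the drug ranged from -0.007 to 0.037 in MED12 and from -0.013 to 0.017 in MED23 knockouts, and the TGFBR1 interaction of MED19 from -0.036 to 0.025. In DMSO the ranges were -0.049 to 0.091 for TGFB3 with MED19 loss, -0.080 to 0.019 for TAGLN between MED19 and MED23 knockouts, and for TGFBR1 -0.004 to 0.028, -0.014 to 0.018 and -0.025 to 0.001 between MED12 and MED19, MED12 and MED23, and MED19 and MED23 knockouts. With SOX10 in control cells they were -0.210 to 0.132 for TAGLN and -0.028 to 0.001 for TGFB1, for TAGLN with MED23 loss under SOX10 -0.096 to 0.108, and in rescued cells -0.216 to 0.111. In the HDAC3 experiment TAGLN ranged from -0.270 to 0.021 with HDAC3 loss, from -0.006 to 0.257 with MED23 loss in HDAC3 knockouts, from -0.175 to 0.129 in double knockouts and from -0.308 to 0.003 in the interaction. In double knockouts TGFB2 ranged from -0.088 to 0.130 and TGFBR1 from -0.019 to 0.090, and TGFB1 with MED23 loss in HDAC3 knockouts from -0.113 to 0.032. The causes were not tested.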
